A study of Mus musculus with 4 samples.

Results

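A set of 5 genes of extracellular and intracellular purine breakdown were followed, all known as genes of enterocytes in the upper part of the small intestinal villus: Ada, Nt5e, Enpp3, Slc28a2 and Xdh. They were taken by name, with every probe set that the platform annotation gave to 1 of them alone. By this rule 4 of the 5 genes had values, through 10 of the 45037 probe sets on the array, against 18193 genes with a probe set of their own in all. Slc28a2 had none: its probe set (1450639_at) is annotated to Slc28a2 and Slc28a2b together, so no value is given for it.

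The samples were small intestinal epithelial cells of C57BL/6J mice, adult at 10 weeks, healthy and specific pathogen-free, loosened with 30 mM EDTA for 20 min on ice and picked by needle under a stereomicroscope. AP-1B, whose mu1B subunit is encoded by Ap1m2, is the epithelial clathrin adaptor that sorts proteins to the basolateral membrane. Of the 4 one-colour Affymetrix arrays, 2 were labelled AP-1B+/- (heterozygous 1 and 2) and 2 AP-1B-/- (knockout 1 and 2). The labels name neither the deleted part of the gene nor the animals, and the p-values reflect differences among these samples alone. No wild-type array was analysed here. Values are signals in multiples of the array median.

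ATP and other nucleotides that reach the gut lumen or leave cells are cut to AMP by surface enzymes, among them Enpp3, and AMP to adenosine by Nt5e, also called CD73. Adenosine is turned into inosine by Ada or carried into the cell by sodium-coupled carriers such as Slc28a2. Inside, nucleosides are split into bases by Pnp, guanine is deaminated by Gda, and Xdh oxidises hypoxanthine and xanthine to uric acid, which carriers such as Abcg2 export. In mouse intestine these steps are known as a feature of enterocytes near the villus tip. The arrays measured bulk RNA with no record of position, so that fewer cells of a type and less RNA per cell cannot be told apart.

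Features of the whole arrays touched every value. Ap1m2 (1460190_at) had a signal of 2.49 on knockout 1, 4.33 on heterozygous 2, 19.9 on heterozygous 1 and 22.3 on knockout 2, against the labels of heterozygous 2 and knockout 2. A probe set outside the deleted part would not check them. Bright probe sets also ran higher on heterozygous 2 and knockout 1, where the 75th percentile was 5.54 and 5.57, than on heterozygous 1 and knockout 2, where it was 4.13 and 4.27. Values were therefore also read after quantile normalization, which gives all arrays the same distribution. Markers of epithelium were present, with all 10 listed genes kept and Krt8 at 382 to 601. The sex-linked Xist had 0.349 and 0.070 on heterozygous 1 and knockout 1, and 30.3 and 60.1 on heterozygous 2 and knockout 2, so the arrays of each label had opposite sex patterns and were not repeats of 1 animal. Replicate number and sex pattern cannot be told apart.

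By limma with Benjamini-Hochberg adjustment, no member passed the threshold of 0.05 between the labelled groups, and neither did any of the 22519 probe sets kept for the test (0%), while 170 of them (0.755%) had an unadjusted p under 0.05. Of the members' 10 probe sets, 8 passed the filter, which asked for a mean over the 4 arrays of at least 0.983. With 2 arrays in each group the lowest p that an exact two-sided permutation test allows is 0.333, so none was run. Of the 8, which are readings of 4 genes and not independent, 7 had a log2 difference below 0, beside 49.3% of all kept probe sets. By brightest probe set all 4 genes were below 0, beside 49.5% of all genes, but Ada and Nt5e changed sign with 1 array left out. All members' adjusted p were 0.999868 by limma, so what follows gives values and intervals. Each member had its own order of the arrays.

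**Figure D1:**
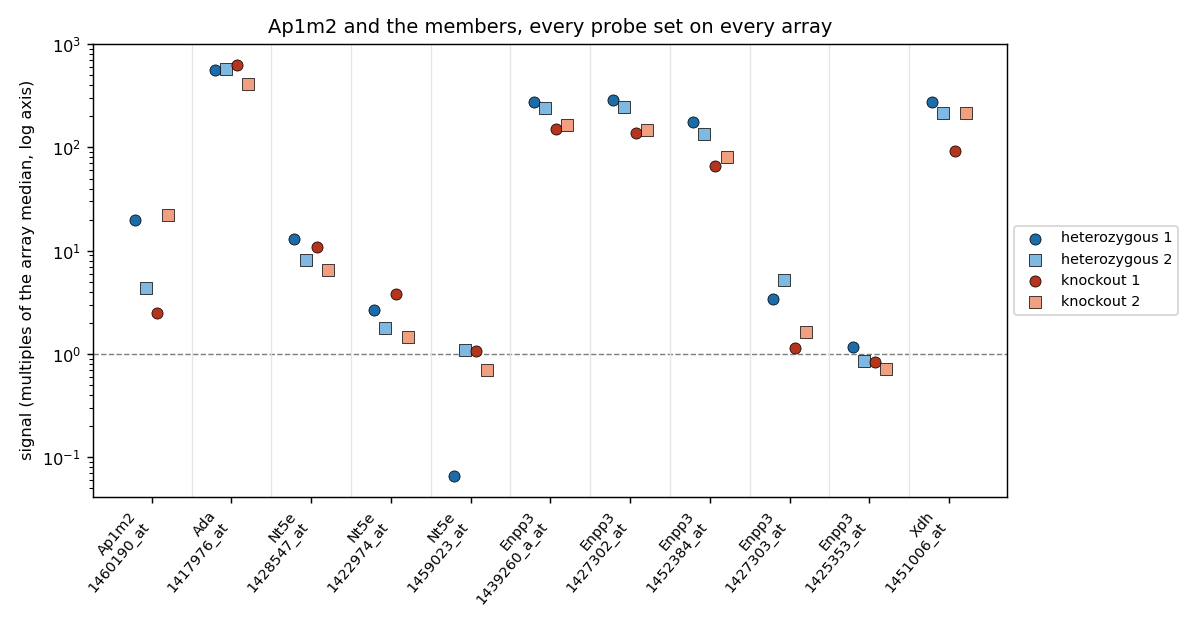
Signal of every probe set of Ap1m2 and of the members on each array, in multiples of the array median on a log axis, with blue for heterozygous and red for knockout labels, circles for replicate 1 and squares for replicate 2. Enpp3 lies lower on both knockout arrays in all 5 probe sets, Xdh is low on knockout 1 alone at 91.6, and Ada stays between 407 and 634.

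The start of the chain came first. Enpp3 is a surface pyrophosphatase and phosphodiesterase that splits ATP and other nucleotides, and it was measured by 5 probe sets, of which 3 derive from 1 cDNA record and so are not independent readings. To show what lies in front of the gene whose labelled groups separated, and of Ada, whose groups did not, the 250 bases before each RefSeq start site (GRCm38.p6) are given 5′ to 3′, with capitals for letters that match a motif searched. Enpp3 lies on the minus strand (upstream window chr10:24836196-24836445), as does Ada (chr2:163750240-163750489).
Enpp3: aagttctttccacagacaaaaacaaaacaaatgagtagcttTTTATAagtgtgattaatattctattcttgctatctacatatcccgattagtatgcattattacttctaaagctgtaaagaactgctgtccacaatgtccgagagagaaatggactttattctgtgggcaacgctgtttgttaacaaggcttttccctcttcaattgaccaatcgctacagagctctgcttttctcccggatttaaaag
Ada: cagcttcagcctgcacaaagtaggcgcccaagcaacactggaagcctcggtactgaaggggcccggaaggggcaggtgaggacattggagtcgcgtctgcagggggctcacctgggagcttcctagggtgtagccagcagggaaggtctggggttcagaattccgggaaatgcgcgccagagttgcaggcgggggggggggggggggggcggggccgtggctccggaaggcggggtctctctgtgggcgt
The Enpp3 window was 36.8% G and C and the Ada window 67.2%, with a median of 52.4% over 32851 windows in the table. Motifs were searched on both strands. For GATA factors it was AGATAA, found in 9.99% of all windows. For caudal factors it was TTTATNG, found in 9.81%. For HNF4 it was either of CAAAGTCCA and CAAAGTTCA, found in 0.715%. The site of nuclear receptors searched was AGGTCA, found in 14%. The TATA box was searched as TATAAA, found in 12.4%, and on the opposite strand it can overlap the caudal motif. The Enpp3 window held 1 match, TATAAA read on the other strand from −209 to −204 relative to the start, and the Ada window none. Nt5e (72% G and C) had none either, and Slc28a2 had the GATA motif and, on the other strand, the caudal motif. Xdh was not among the 4 members matched in the table. A match is a description of letters only. Enpp3 and Ada were picked for printing by their values, and no link of motif or base content to those values was tested.

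The probe set of Enpp3 with the highest mean, 1439260_a_at, had a signal of 276 and 243 on the arrays labelled heterozygous 1 and 2, and of 149.8 and 166 on those labelled knockout 1 and 2. The labelled groups did not overlap, and the lower heterozygous value was 1.46 times the higher knockout value. The means were 259 ± 23.9 for heterozygous and 158 ± 11.4 for knockout (SD, n = 2 each). The log2 difference, knockout minus heterozygous, came to −0.71 ± 0.41 (standard error) with a 95% interval of −1.60 to 0.17. Probe set 1427302_at had 287 and 248 on the heterozygous arrays and 138 and 149 on the knockout arrays, a difference of −0.89 ± 0.41 on the log2 scale. Probe set 1452384_at had 178 and 136 against 65.6 and 80.8, with a difference of −1.09 and a standard error of 0.47. Both again separated the labels, and had 95% intervals of −1.78 to −0.0057 and −2.12 to −0.060 that do not allow for the number of probe sets tested. The dim probe set 1427303_at had 3.40 and 5.20 against 1.14 and 1.64, or −1.42 with a standard error of 0.44, and an unadjusted p of 0.0069 by limma, the adjusted p being 0.999868. The probe set that failed the filter, 1425353_at, had 1.17 and 0.857 against 0.838 and 0.718, groups that stood apart by 1.02 times. All 5 therefore had lower values on both knockout arrays. In 3 of the 8 kept member probe sets, all of Enpp3, the values were lower with an unadjusted p under 0.05, as in 0.457% of all kept probe sets by limma.

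Across the members, 4 of the 8 kept probe sets had both knockout arrays below both heterozygous arrays, and all 4 were those of Enpp3. Among all kept probe sets 10.7% did so. After quantile normalization the count was again 4 of 8, beside 11% of all. The gap then narrowed: on the quantile-normalized log2 scale 1439260_a_at had 8.25 and 7.78 on the heterozygous arrays and 7.03 and 7.59 on the knockout arrays. With 1 array left out in turn, the difference of 1439260_a_at ranged from −0.81 to −0.62, of 1427302_at from −0.998 to −0.790, of 1452384_at from −1.28 to −0.90 and of 1427303_at from −1.71 to −1.14. Groups that do not overlap fix the sign of these in advance. Between heterozygous 1 and knockout 1 alone, the arrays whose Ap1m2 signal went with the label, 1439260_a_at differed by −0.88 and 1427302_at by −1.05. Enpp3 did not separate the arrays by their Ap1m2 signal: heterozygous 2, with low Ap1m2, was above knockout 2, with high Ap1m2, in all 5 probe sets.

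Enpp3 is also a surface protein of mast cells and basophils, and their markers were mixed by label. Of 12 such genes 4 were kept, with a summed signal of 12.1 and 9.07 on the heterozygous arrays and 7.10 and 5.33 on the knockout arrays. The mucosal mast cell proteases Mcpt1 (4.14 and 2.31 against 0.768 and 0.558) and Mcpt2 (5.05 and 4.57 against 2.60 and 1.27) separated the labels with knockout lower, though with knockout 2 lowest and not knockout 1 as for Enpp3. The other kept genes had higher knockout means on the log2 scale and overlapping groups: Kit had 1.12 and 1.61 against 2.34 and 1.37, and Gata2 had 1.77 and 0.594 against 1.38 and 2.14. The remaining listed genes failed the filter. Of them Fcer1a, Hdc, Ms4a2 and Cpa3, chosen after their values were seen, stayed at or below 0.540, 0.289, 0.820 and 1.22. Cma1 had 0.268 and 1.498 against 0.12 and 1.269, and Tpsb2 had 0.379 and 1 against 0.144 and 0.686. Tpsab1 had 0.314 and 0.791 against 0.222 and 0.294, and Mcpt4 had 0.222 and 0.15 against 0.077 and 0.272. Cma1, Tpsb2, Tpsab1 and Mcpt4 were lowest on knockout 1, as the kept probe sets of Enpp3 were. Among them Tpsab1 alone separated the labels. The part of such cells in the Enpp3 values was not tested.

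**Figure D2:**
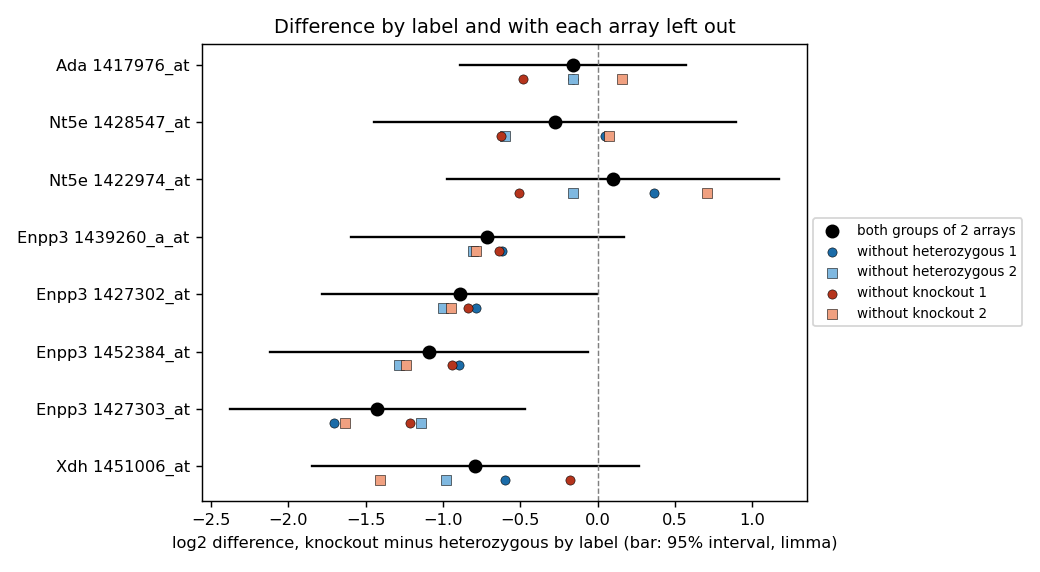
Log2 difference (knockout minus heterozygous, by label) of the members' 8 kept probe sets, with the 95% interval of the limma fit as a bar and, below it, the value with each array left out. The Enpp3 points stay between −1.71 and −0.62, whereas those of Ada and Nt5e lie on both sides of 0 and those of Xdh run from −1.41 to −0.18.

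Nt5e, the ectoenzyme that makes adenosine from AMP, had a different order of the arrays. Its probe set 1428547_at had 12.9 and 8.13 on the heterozygous arrays, and 10.8 and 6.51 on the knockout arrays. The labelled groups overlapped, and both replicate 1 arrays were above both replicate 2 arrays. The means were 10.50 ± 3.35 and 8.66 ± 3.04 (SD, n = 2 each), and the log2 difference was −0.28 ± 0.54 (standard error) with a 95% interval of −1.45 to 0.90. Probe set 1422974_at had 2.69, 1.78, 3.79 and 1.45 in the same array order, again with both replicate 1 arrays on top. Its difference was 0.10 with a standard error of 0.49 and turned to −0.0024 with quantile normalization. The 2 probe sets thus gave no common direction by label. Probe set 1459023_at, which failed the filter, had 0.066, 1.10, 1.07 and 0.701. The replicate 1 arrays were above the replicate 2 arrays at 2 of the members' 8 kept probe sets, both of Nt5e, beside 6.57% of all kept probe sets, and at 2 of 8 beside 11.1% after quantile normalization.

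T cells also carry Nt5e and Ada, and 12 of 16 T and NK cell markers were kept. Their summed signal was 499 and 108 on the heterozygous arrays, and 19.7 and 305 on the knockout arrays. Knockout 1 was the lowest array at all 12, beside 20.7% of all genes. The part of such cells in the Nt5e and Ada values was not tested.

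Ada, the deaminase that converts adenosine to inosine, was the most even member. Its 1 probe set (1417976_at) had 568 on either heterozygous array, 634 on knockout 1 and 407 on knockout 2. The knockout arrays lay on either side of the heterozygous ones. The means were 568 ± 0.116 and 520.3 ± 161 (SD, n = 2 each), and the log2 difference was −0.16 ± 0.34 (standard error) with a 95% interval of −0.89 to 0.57. Without knockout 2 it was 0.16, and without knockout 1 it was −0.48. Its values spanned 0.64 on the log2 scale, less than the median span of 0.86 over kept probe sets, and Nt5e, Enpp3 and Xdh spanned 0.95, 0.88 and 1.60 at their brightest probe sets.

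Xdh, at the end of the chain, was low on 1 array. Probe set 1451006_at had 278 and 213 on the heterozygous arrays, 91.6 on knockout 1 and 215 on knockout 2. Knockout 2 was 2.35 times knockout 1 and slightly above heterozygous 2, so the labelled groups overlapped. The means were 245 ± 45.5 and 153 ± 87.4 (SD, n = 2 each), and the log2 difference was −0.79 ± 0.49 (standard error) with a 95% interval of −1.85 to 0.27. Without knockout 1 it was −0.18, and without knockout 2 it was −1.41. The size of the difference thus rested on knockout 1. That array was the lowest of the 4 at 5 of the members' 8 kept probe sets, the 4 of Enpp3 and that of Xdh, beside 21.1% of all kept probe sets, and at 5 of 8 beside 32.7% after quantile normalization. Knockout 2 was lowest at the other 3, of Ada and Nt5e, beside 30.8%.

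By Ap1m2 signal, the arrays ran from knockout 1 through heterozygous 2 and heterozygous 1 to knockout 2. No mean or test is given over arrays set apart by a measured level. Xdh had both low-Ap1m2 arrays (91.6 and 213) below both high-Ap1m2 arrays (278 and 215), an order found at 11.7% of kept probe sets, or 24.9% after quantile normalization. Ada had both low-Ap1m2 arrays (634 and 568) above both high-Ap1m2 arrays (568 and 407), found at 52.7% of kept probe sets, or 28.4% after quantile normalization, and heterozygous 2 exceeded heterozygous 1 there by under 1 unit. The other 6 kept probe sets, of Nt5e and Enpp3, had no such order. The count stayed at 2 of 8 under quantile normalization.

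The members were next set beside genes with a known place on the villus. The villus tip list, to which Apoa4, an apolipoprotein, and Krt20, a keratin of mature cells, belong, was lower on the knockout arrays at 9 of 13 genes, with a median log2 difference of −0.17 that became 0.030 without knockout 2 and −0.033 without heterozygous 2. Of all 11326 genes, each by its brightest probe set, 49.5% were lower, with a median of 0.0040. In the array order heterozygous 1 and 2, then knockout 1 and 2, Apoa4 had 543, 512, 525 and 416, and Krt20 had 332, 348, 431 and 288, patterns in which knockout 2 was lowest, as for Ada. After quantile normalization knockout 2 remained lowest for Ada, but Apoa4 was lowest on knockout 1 and Krt20 on heterozygous 2. Knockout 1 was then lowest at 6 of the 13 tip genes, beside 34.6% of all genes. Mid villus absorptive genes were lower at 11 of 11, with a median of −0.82. Knockout 1 was their lowest array at 8 of 11, beside 20.7% of all genes, and at 10 of 11 beside 34.6% after quantile normalization, as it was for Xdh. Without knockout 1 their median was −0.11, and without knockout 2 it was −1.75. The brightest of them, the fatty acid binding protein genes Fabp1 and Fabp2, had 707, 769.5, 910.4 and 582, and 596, 538, 578 and 461, and so had knockout 2 lowest. After quantile normalization this held for Fabp1, and Fabp2 was lowest on knockout 1. Crypt and proliferation genes were higher at 17 of 17, with a median of 0.57 that became −0.061 without knockout 1, 0.33 without heterozygous 1 and 1.21 without knockout 2. Of the 6 lower villus genes 5 were lower, with a median of −0.13 that became 0.38 without knockout 1 and 0.13 without heterozygous 2, and −0.31 and −0.83 without heterozygous 1 and knockout 2. Knockout 1 was the lowest array at 4 of the 6 lower villus genes, beside 20.7% of all genes. After quantile normalization it was lowest at 6 of 6, beside 34.6%. A low value on knockout 1 was thus not particular to the mid villus list. No gene of these lists passed the adjusted threshold by limma.

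**Figure D3:**
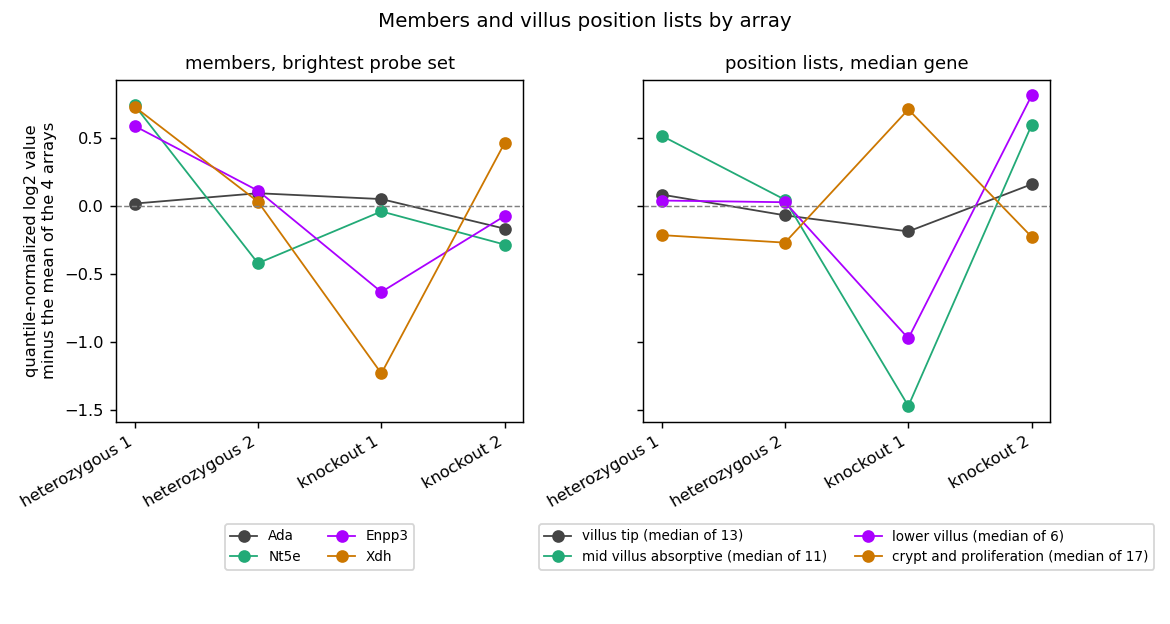
Quantile-normalized log2 values minus their mean over the 4 arrays, for the members' brightest probe sets (left) and for the median gene of the villus position lists (right). Xdh reaches −1.23 and the mid villus median −1.47 on knockout 1, Enpp3 reaches −0.63 there, and Ada and the villus tip median stay within 0.2 of 0.

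Other genes of nucleotide breakdown were then read by step, from lists of which no gene passed the adjusted threshold by limma. The list named for extracellular hydrolysis, in which the place of each protein was not checked, had 9 genes kept of 12. Of these, 7 were lower on the knockout arrays. The median log2 difference was −0.25, or −0.42 without heterozygous 1 and −0.14 without heterozygous 2. The groups did not overlap, with knockout lower, at 4 of the 9, beside 10.9% of all genes. In the array order above, the intestinal alkaline phosphatase Alpi was even, at 588, 539, 589.6 and 485. Its relative Akp3 had 404, 415, 324 and 367. The nucleoside diphosphatase gene Entpd5 had 94.8, 91.1, 49.5 and 74.1, and the surface triphosphatase genes Entpd2 and Entpd8 had 9.70, 15.3, 6.77 and 9.28, and 29.3, 24.03, 12.7 and 24.96. On these deposited values Entpd2, Entpd5 and Akp3, with Entpd7 as the fourth, separated the labels with knockout 1 lowest, and Entpd8 did not. After quantile normalization Entpd2 still separated them, as Enpp3 did. Knockout 2 then lay above heterozygous 2 for Entpd5, Entpd7 and Akp3, so that their groups overlapped. Of the members' relatives, Enpp1 and Slc28a1 had no probe set of their own here.

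Nucleoside and urate carriers had 6 genes kept of 9, of which 4 were lower (median −0.21, or −0.37 without heterozygous 1 and −0.10 without heterozygous 2). The concentrative carrier gene Slc28a3, a relative of Slc28a2, had 2.41, 6.80, 6.71 and 3.41 in the same array order, a difference of 0.21 with a standard error of 0.55. The lysosomal nucleoside carrier gene Slc29a3 had 2.78, 2.85, 2.30 and 2.01. The urate exporter gene Abcg2 had 105, 98.6, 40.1 and 87.2, with knockout 1 lowest as for Xdh.

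Inside the cell, the list of purine catabolism was mixed, with 3 of 11 kept genes lower, 8 higher and a median of 0.18, which became −0.23 without knockout 1 and −0.41 without heterozygous 1, and 0.71 and 0.48 without knockout 2 and heterozygous 2. The 3 that were lower were Gda, Pnp and Samhd1, a nucleoside triphosphate hydrolase that removes dNTPs. Guanine deaminase, Gda, had 301, 247, 87.6 and 250.5, with a difference of −0.88 ± 0.51 (standard error) on the log2 scale. Knockout 2 was 2.86 times knockout 1, near the ratio of 2.35 for Xdh. Pnp had 268, 286, 159.6 and 259, and Samhd1 had 31.7, 34.2, 15.7 and 26.1. Knockout 1 was the lowest array at these 3 genes and the highest at 7 of the other 8, or 7 of 11 in all, beside 42.6% of all genes. After quantile normalization it was again highest at 7 of 11, beside 35.5%.

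Pyrimidine breakdown was lower at 4 of 5 kept genes of 8 listed, with a median of −0.54 that became −0.13 without knockout 1 and −0.92 without knockout 2. Cytidine deaminase, Cda, had 167, 211, 99.3 and 168. Dihydropyrimidine dehydrogenase, Dpyd, had 96.5, 63.5, 32.6 and 73.0, and beta-ureidopropionase, Upb1, the last enzyme of the route, had 11.5, 9.73, 3.52 and 9.30. All 3 were lowest on knockout 1, which was the lowest array at 4 of the 5 after quantile normalization, beside 34.6% of all genes. Xdh needs a molybdenum cofactor, and of that list Mocs2, a subunit of molybdopterin synthase, had 125, 140.3, 73.1 and 131, while Mocos, which adds the sulfur that Xdh requires, had 11.3, 20.3, 11.4 and 13.5. The list was lower at 3 of 6 kept genes (median −0.089, and from −0.40 without heterozygous 1 to 0.18 without heterozygous 2 with 1 array left out). The related aldehyde oxidase gene Aox1 failed the filter, with 0.360 to 0.777.

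**Figure D4:**
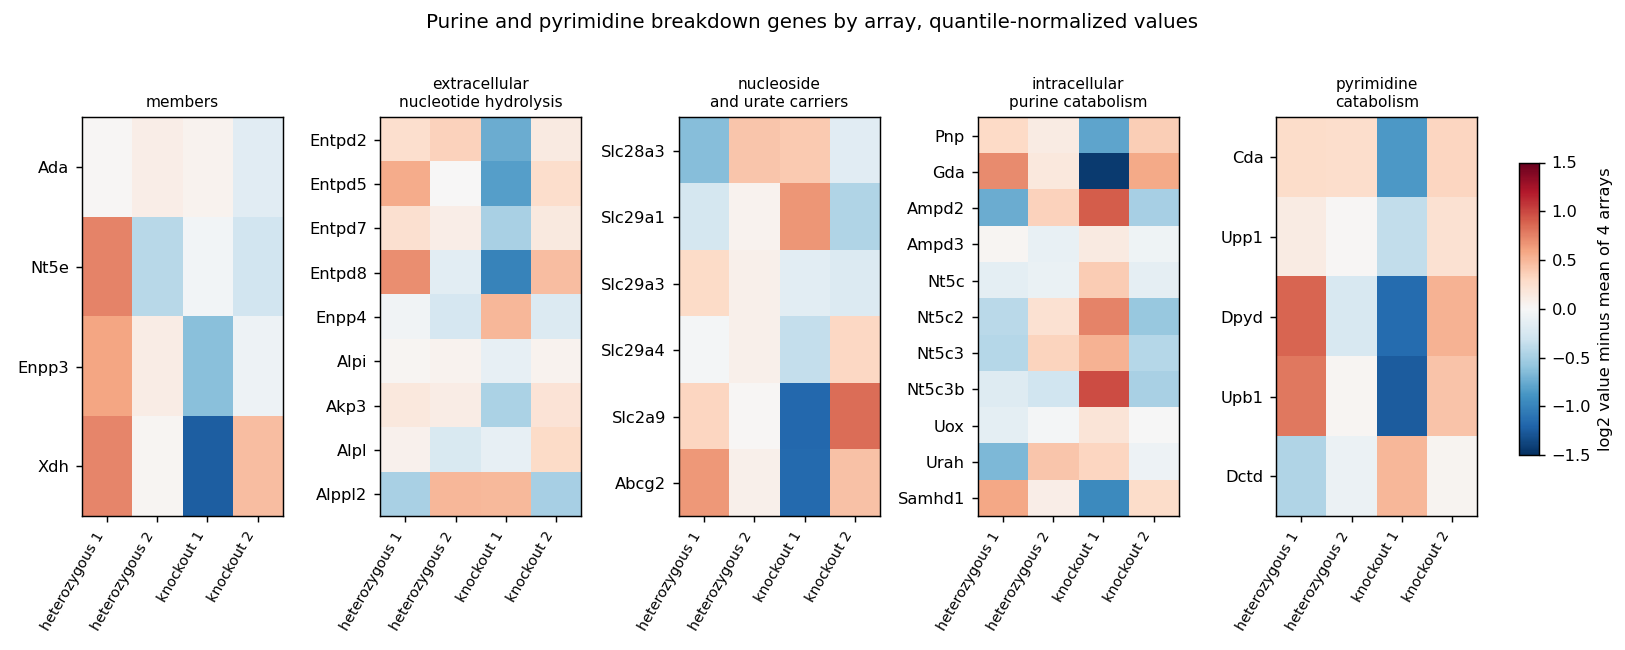
Quantile-normalized log2 value of each kept gene minus its mean over the 4 arrays, for the members and for 4 lists of nucleotide breakdown, with red for higher and blue for lower and the colour scale ending at −1.5 and 1.5. Knockout 1 is lowest at Xdh and Enpp3, and not at Ada or Nt5e. It is lowest at 6 of 9 extracellular hydrolysis genes, 3 of 6 carriers, 3 of 11 purine catabolism genes and 4 of 5 pyrimidine genes, beside 34.6% of all genes. These include Gda, Pnp, Samhd1, Abcg2, Cda, Dpyd and Upb1. At 7 of the 11 purine catabolism genes it is highest, beside 35.5% of all genes.

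Likeness of pattern was measured as the root mean square difference between centred log2 values over the 4 arrays, among 11322 other genes. Nearest to Xdh were Phyh (0.052), Tec (0.055) and Bbox1 (0.062), and 15 genes lay within 0.1. Phyh, an enzyme of phytanic acid oxidation, had 213, 175, 76.0 and 165. Nearest to Enpp3 were Tbxas1 (0.044), Acer1 (0.048) and D13Ertd608e (0.056), with 16 genes within 0.1. Nearest to Nt5e were Foxm1 (0.065), Rgs2 (0.067) and Crlf3 (0.078), with 6 within 0.1. Nearest to Ada were Slf1 (0.0065), Pkp4 (0.0098) and Slc39a6 (0.019), with 139 within 0.1. On quantile-normalized values 1 of these 12 names, Rgs2, was again among the 3 nearest, and Upb1 (0.034) was then among those of Xdh. Between members, on deposited values alone, Ada and Nt5e were closest (0.24) and Ada and Xdh farthest apart (0.74). The member pairs were not measured on quantile-normalized values.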

How the data were processed

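The deposited table gives 1 linear intensity per probe set and array, made by the authors with MAS5 per the submitters' processing notes (version not given in the sources used here); a scaling of each array to a median near 1 was inferred from the values alone. Gene names came from the platform annotation (34945 with 1 gene, 932 with several, 9160 with none), and names were checked against RefSeq (GRCm38.p6, 34741 matched). Intensities were taken as log2(value + 0.321), the 25th percentile of all values; this understates differences of dim probe sets. The 22519 probe sets at or above the median mean were fitted with limma 3.58.1 (R 4.3.3, intensity trend) and adjusted over all of them. The fit was run on simulated data with the same spread for every probe set, which does not show how it performs on these arrays. A gene was represented by its kept probe set with the highest mean (11326 genes). Lists are given as counts and medians. From each pathway list the 2 genes with the highest mean and the 2 with the smallest p were named, with Entpd8, Slc28a3 and Aox1 as relatives; from position lists and lists of other cells or segments the highest means, where a member bears on them. Members and lists were chosen with earlier results of these data known. The samples' replicate numbers were checked for pairing. The deviations of heterozygous 1 and knockout 1 from their group means correlated at −0.51 over probe sets. With 2 arrays in each group, the 0.51 of heterozygous 1 and knockout 2 is fixed by that value and is no second result. No label says what the numbers mark, so the arrays were not treated as pairs. Both arrays of a number share a sex pattern. Precision is limited by the 4 arrays, which shared identical values at no more than 0.144% of probe sets. Detection calls and protein sequences were not used here.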

Additional observations from a re-analysis of the deposited data

How the results depend on the processing

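The number of probe sets past the threshold was 0 and stayed 0 under other pseudocounts, without a filter, under 3 other scalings, without the trend or with a robust fit, and with the replicate block (0 calls, 145 at an unadjusted p under 0.05 by limma). With the brightest 25% alone it was 1, no member. With 1 array left out, where a lone array is assumed to vary like the other group, it ranged from 0 to 240, reached without knockout 2, and was 24 without knockout 1; no member passed in any of these fits. A block of crossed pairs, added after the data were seen, gave 0 calls. It had 1246 probe sets at an unadjusted p under 0.05 by limma, against 170 in the main fit. With 1 array left out, Ada ranged from −0.48 to 0.16, Nt5e 1428547_at from −0.63 to 0.075 and 1422974_at from −0.51 to 0.71, and Xdh from −1.41 to −0.18. Quantile normalization turned Nt5e 1422974_at to −0.0024. Between heterozygous 1 and knockout 1 alone, also added later, Ada was 0.16, Enpp3 1439260_a_at −0.88 and Xdh −1.60. On all arrays, the mean difference over the kept probe sets of Enpp3, a planned setting, was −1.03, beside −0.71 for 1439260_a_at. The replicate block changed no call (Enpp3 1439260_a_at −0.71, standard error 0.73). The causes of these moves were not tested beyond the arrays left out.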

Other observations

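Genes that build purines mostly had their highest value on knockout 1. Of 13 de novo synthesis genes 11 were kept, 9 had higher values on the knockout arrays (median log2 difference 0.44, falling to −0.13 with knockout 1 left out and reaching 1.11 with knockout 2 left out, and 0.29 and 0.84 with heterozygous 1 or 2 left out), and none passed the adjusted threshold by limma. Knockout 1 was the highest array at 10 of the 11, beside 42.6% of all genes, and at 10 of 11 beside 35.5% after quantile normalization. Atic, which completes the purine ring, had 7.95 and 17.8 on the heterozygous arrays, 48.9 on knockout 1 and 10.8 on knockout 2. In the same array order Ppat, the first committed enzyme, had 1.66, 1.96, 6.22 and 1.62, and Adss, which leads towards AMP, had 39.4, 65.7, 92.3 and 38.8.

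Purine salvage was higher at 6 of 8 kept genes (median 0.17, or −0.18 and 0.43 with knockout 1 or 2 left out, and −0.19 and 0.42 with heterozygous 1 or 2 left out), with Ak3 at 138, 167, 126 and 129, Aprt at 63.7, 135, 126 and 85.3, and Dguok at 4.32, 6.58, 7.22 and 6.10. Of 11 receptors for adenosine and nucleotides 4 were kept. P2rx4 had 10.9, 26.05, 20.1 and 12.4, P2ry1 had 3.62, 8.85, 10.6 and 5.41, P2ry6 had 1.61, 0.959, 2.52 and 1.29, and P2rx7 had 2.72, 0.642, 0.626 and 1.39.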
